A study of Mus musculus with 8 samples.

Results

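The regions described here carried H3K4me3 in cultured mouse germline stem cells of both culture ages and a listed H3K27me3 peak only at the younger age. They were found by merging the peaks of the 4 deposited H3K4me3 lists wherever they shared at least 1 bp, which gave 54585 regions, of which 35229 had a peak in all 4 lists. Of those 35229, 2778 overlapped an H3K27me3 peak in both lists of the younger cells. The regions of interest are the 454 of the 2778 that overlapped no H3K27me3 peak in either list of the older cells (16.3%, exact binomial (Clopper-Pearson) 95% interval 15.0 to 17.8%). The count depends on each H3K27me3 list: leaving out 5M library 1 gave 1138, leaving out 5M library 2 gave 582, and leaving out either 60M library gave 802 or 721. A further 615 (22.1%) overlapped a peak in a single list of the older cells, and 1709 (61.5%) kept a peak in both. Only 124 regions showed the reverse pattern, with H3K27me3 in both lists of the older cells and neither list of the younger ones, and 30344 had no H3K27me3 peak in any list. The 454 regions were chosen by the H3K27me3 peak calls at both ages, so every H3K27me3 value given below is a description and carries no test.

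H3K4me3, the trimethylation of lysine 4 of histone H3, marks nucleosomes around the start sites of active and poised genes. H3K27me3, the trimethylation of lysine 27, is laid down by Polycomb repressive complex 2, spreads over domains, and accompanies silencing. Promoters that carry both marks are called bivalent. They were first described at developmental genes of embryonic stem cells, and male germ cells keep many of them in a poised state.

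Germline stem (GS) cells are the cultured form of spermatogonial stem cells, the cells that sustain sperm production in the testis. The labels give all libraries the same source, testis of wild type Green mice, a line named C57BL/6 Tg14(act-EGFP)OsbY01 that carries an EGFP transgene, on a DBA/2 background. Cells were kept for about 5 months (5M) or about 60 months (60M) in a medium based on Iscove's modified MEM with human FGF2, rat GDNF and 1% fetal bovine serum, so both ages share every additive and the transgene. Each mark was profiled by chromatin immunoprecipitation and sequencing in 2 libraries per age, 8 in all. The labels do not say whether the libraries of an age came from separate cultures or lines, so p-values measure only the spread between these libraries, which can be technical. They also do not say which libraries were prepared with micrococcal nuclease in addition to sonication. The H3K4me3 lists held 41637 to 47415 peaks. The H3K27me3 lists held 12002 and 14632 peaks at 5M and 14940 and 13037 at 60M, so the 60M lists were not the shorter ones. Read totals are not in the lists and depth is unknown. Where a list has no peak the caller made no call, and the mark may still have been present.

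At 5M the H3K27me3 on these regions ranged from the weakest peaks of the lists to the strongest. Strength was read as the maximum immunoprecipitation signal of a peak, in the authors' deposited units, and as its percentile within its own list. The highest peak on a region had a median signal of 49.4 in 5M library 1 and 59.3 in 5M library 2, at median percentiles of 59.6 and 71.7. The 1709 regions that kept H3K27me3 had medians of 64.2 and 76.3, at percentiles of 83.0 and 87.3, so the 454 regions were weaker in both libraries. Signals on the 454 regions ran from 19.9 to 634.3 in library 1 and from 18.9 to 604.5 in library 2. Against the control, 26 of the 454 reached the highest −log10 p in the lists (15.95) in library 1 and 61 did in library 2.

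H3K27me3 also covered less of these regions at 5M. Borders are given in bins of 1000 bp, and the median region was 3 kb wide. On average 50.1% and 58.9% of a region was covered in the 2 libraries at 5M, against 68.0% and 76.9% for the regions that kept the mark. H3K27me3 took up no more than a single bin of the region in both 5M lists in 247 of the 454 (54.4%), against 344 of the 1709 (20.1%). It covered the whole region in both lists in 68 of the 454 (15.0%) and in 577 of the 1709 (33.8%).

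In most of these regions the 5M H3K27me3 domain ran past a border of the H3K4me3 region. A domain is taken here as the span of all 5M H3K27me3 peaks, from either list, that overlapped the region. In 262 regions it ran past 1 border of the region, in 124 it ran past both, and in 68 it stayed inside. A domain that ran past 1 border could still be narrower than the region. At chr7:77475000-77477999 a domain of 2 kb passed 1 border of a region of 3 kb. The median domain was 4 kb and the widest 27 kb, and 48 regions had a domain of at least 10 kb.

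At 60M the H3K4me3 region itself was free of listed H3K27me3 by the rule, and many of the 5M domains were still listed in part. Both 60M lists held a peak inside the same 5M domain for 185 of the 454 regions (40.7%), a single list did for 96 (21.1%), and neither did for 173 (38.1%). The 68 domains that stayed inside the region could not be reached by a 60M peak, because the rule leaves none there. Among the 386 that ran past a border, 281 (72.8%) were reached by at least 1 60M list. In the reverse pattern, 84 of the 124 regions had a 60M domain that ran past a border, and 47 of these (56.0%) were reached by a 5M list. For the 185 regions whose domain was found by both 60M lists, H3K27me3 covered 80.2% and 91.2% of the domain's bases at 5M and 55.0% and 47.4% at 60M. The domain is built from 5M peaks and the rule leaves its bins on the region free at 60M, so the lower 60M cover follows from the choice and the 60M values say only how much of the domain remained listed.

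The distance to the nearest 60M peak showed how close the mark remained. A 60M peak of at least 1 list began in the bin directly next to the region in 293 of the 454 (64.5%), and peaks of both lists did in 179 (39.4%). Within 1 kb the counts were 319 and 210, and within 10 kb they were 350 and 246. Among the 30344 regions without H3K27me3, 7.05% had a 60M peak in the adjacent bin in at least 1 list. Of the 124 regions with the reverse pattern, 58 (46.8%) had a 5M peak in the adjacent bin.

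Over the 10 kb on each side of the 454 regions, H3K27me3 covered on average 3.33 kb in library 1 and 4.21 kb in library 2 at 5M, and 2.82 and 2.20 kb at 60M. These bases include the rest of the 5M peaks that the rule required, and the reverse class of 124 regions had the opposite order, with a 5M cover of 0.911 and 1.21 kb and a 60M cover of 2.15 and 2.02 kb. Around the regions that kept the mark the 5M cover was 4.77 and 5.41 kb, the 60M cover was 5.33 and 4.75 kb, and the ages overlapped.

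In the profile around the centre of the 454 regions, a listed H3K27me3 peak lay on the bin at −2 kb in 47.8% and 60.6% of regions at 5M and in 29.1% and 22.0% at 60M. At +2 kb the shares were 41.4% and 48.7% at 5M and 30.4% and 23.6% at 60M. Both 60M libraries were lower at both distances, and they went from 0 at the centre to these values just outside it. The regions that kept H3K27me3 had a shallower dip: the centre bin was covered in 58.5% and 69.3% at 5M and in 48.2% and 49.6% at 60M. At −2 kb these shares were 71.5% and 79.7% at 5M against 70.9% and 68.1% at 60M, lower in both 60M libraries. At +2 kb they were 61.6% and 69.6% against 66.7% and 62.1%, which overlapped. In 306 of the 1709 (17.9%) H3K27me3 covered less of the H3K4me3 region in both 60M lists than in both 5M lists, and in 19 (1.11%) it covered more. A narrower H3K27me3 cover over H3K4me3 regions at 60M was therefore also present in the regions where the mark was kept.

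**Figure D1:**
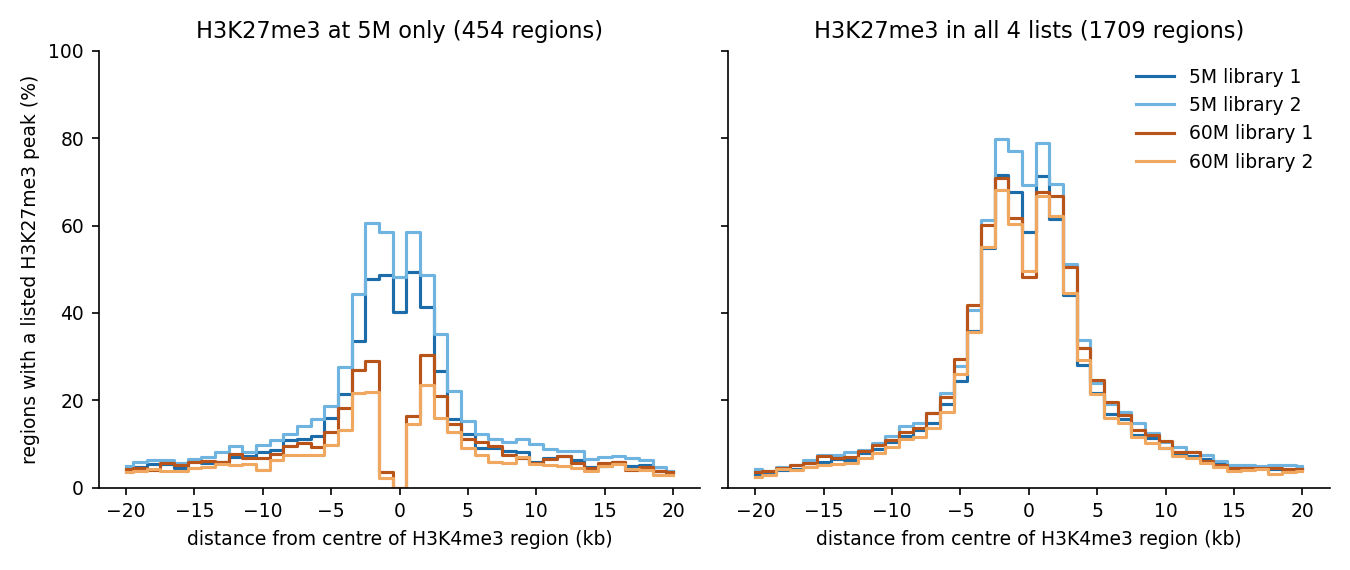
Share of regions (%) with a listed H3K27me3 peak on each 1 kb bin, by distance from the centre of the H3K4me3 region (kb), for the 454 regions with H3K27me3 at 5M only and the 1709 with H3K27me3 in all 4 lists, 1 line per library. In regions with an even number of bins the centre is the bin right of the midpoint. On the left the 60M lines fall to 0 at the centre, as the rule requires, and reach 29.1% and 22.0% at −2 kb. On the right the dip at the centre goes to 48.2% and 49.6% at 60M.

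The 15 regions with the strongest H3K27me3 at 5M show this at single sites. Positions are as the lists give them and follow the chromosome lengths of mouse build mm9. In 13 of the 15, the 5M domain was found by both 60M lists, and in 13 a 60M peak of both lists began in the bin next to the region. The second strongest, chr17:86007000-86008999, had 5M signals of 158.5 and 199.3 in a domain of 16 kb. At 60M both lists placed a peak at 86004000 to 86006999, ending at its left border, and another that began at its right border, 86009000, and ran to 86012999 in library 1 and to 86011999 in library 2. The 2 bins of the H3K4me3 region between them were left free.

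The fourth strongest, chr14:122872000-122876999, had 5M signals of 147.6 and 171.0 in a domain of 25 kb that ran past both borders. Both 60M lists held a peak of 12 kb from 122877000 to 122888999, which began at the first bin to the right of the region. To its left they had peaks from 122865000 to 122871999 and from 122866000 to 122870999. The eighth strongest, chr19:45304000-45311999, had 5M signals of 125.8 and 165.3. Its 60M peaks stopped at 45303999 on the left in both libraries and restarted at 45312000 on the right in both. At 5M the left peaks of both libraries reached 1 bin into the region, and on the right the peak of library 1 did so while that of library 2 began at 45312000, as at 60M. In these 3 regions 60M H3K27me3 lay on both sides of the H3K4me3 region and left it free. The 5M peaks already had a gap over part of the region at the fourth and the eighth, where on average 30% and 25% of the region was covered at 5M. The ages differ there by bins at its edges and, at the eighth, a single inner bin in library 2. At the second, 5M library 2 also left the first bin of the region free, while the peak of 5M library 1 covered the whole region.

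At a further strong region the whole domain was missing from the 60M lists. At chr1:90183000-90183999, both 5M lists held a 7 kb peak from 90179000 to 90185999, with signals of 134.1 and 162.1. The nearest 60M peak lay 28 kb away in library 1 and 8 kb away in library 2. Its deposited H3K4me3 signals were 170.3 and 182.3 at 5M and 250.0 and 218.5 at 60M, and no neighbour among the 454 lay closer than 7185 kb. After the normalization described below, 60M library 2 was close to 5M library 2 (7.62 and 7.61, log2). The difference between ages was not called (0.18 ± 0.13, log2, SE, limma adjusted p = 0.394).

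The tallest H3K27me3 signals of both 5M lists belonged to chr17:39979000-39985999, with 634.3 and 604.5. At 60M library 1 had a peak of a single bin next to it, from 39978000 to 39978999, with a signal of 59.3, and library 2 had none within 1364 kb. The deposited H3K4me3 signals there were also among the tallest of all lists, at 781.9 and 737.5 at 5M and 788.3 and 732.3 at 60M, and the ages overlapped. Both marks were thus tall at this site, and whether repeated sequence adds to its signals was not tested, so its rank is given with that doubt.

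**Figure D2:**
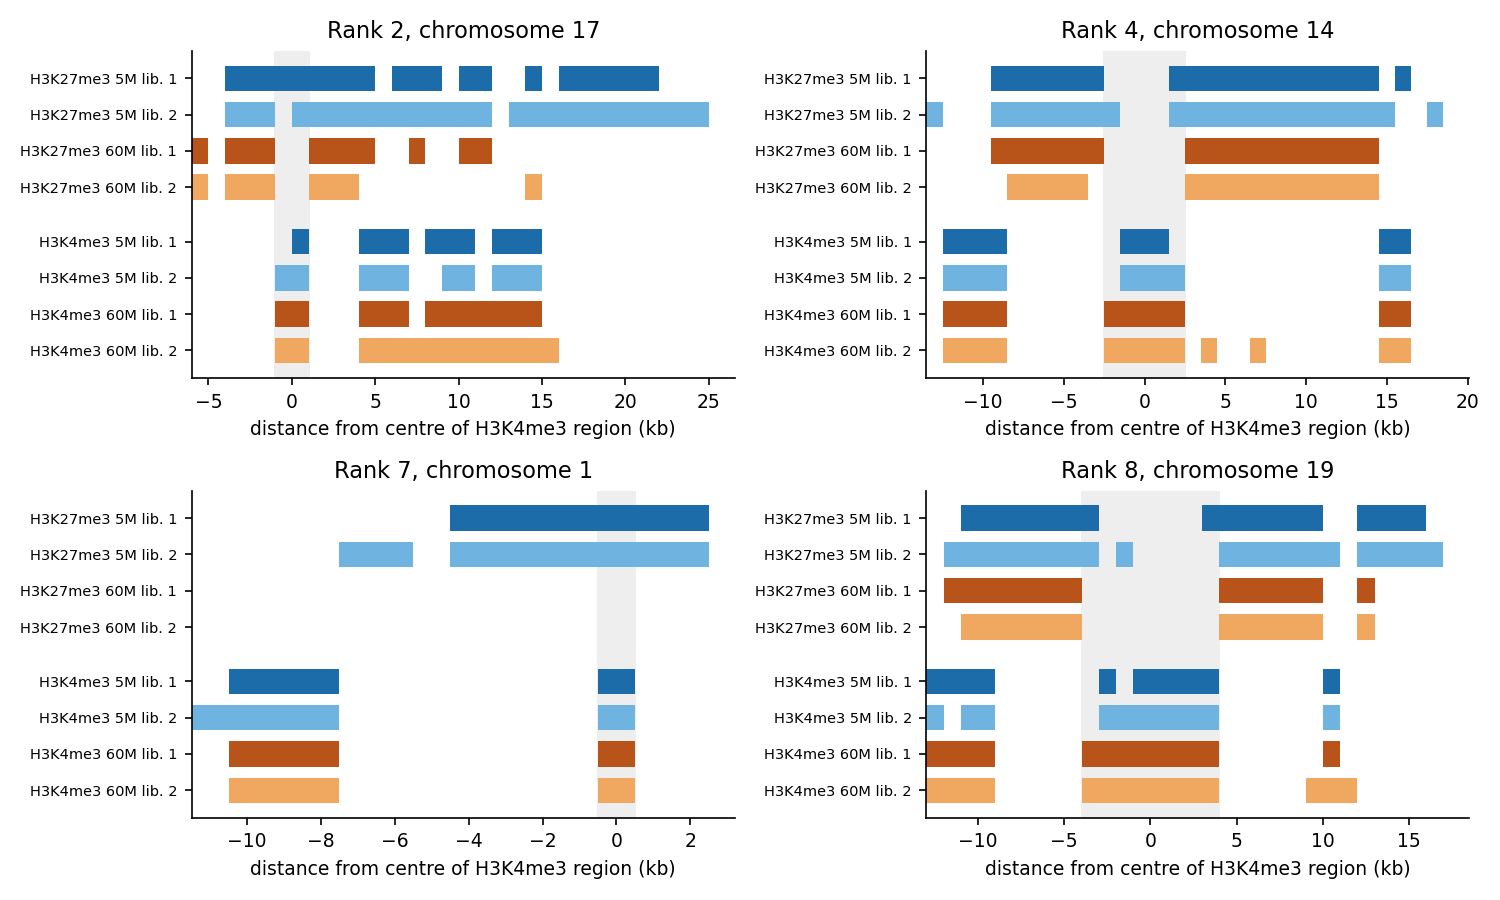
Listed peaks of all 8 libraries around 4 of the 15 regions with the strongest 5M H3K27me3 (ranks 2, 4, 7 and 8). The horizontal axis gives the distance from the centre of the H3K4me3 region (kb), bars are peaks as listed, and grey shading is the H3K4me3 region. At ranks 2, 4 and 8 the 60M H3K27me3 peaks stop at the shaded region and resume beyond it. A gap was already present at 5M at ranks 4 and 8, and in library 2 at rank 2. At rank 7 no 60M peak is listed in the window.

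Of the regions not yet named, the 6 with the most bases covered by overlapping 5M H3K27me3 peaks, as a mean of both lists and with ties broken by signal, were chr7:4794000-4796999, chr1:42750000-42756999, chr13:99123000-99126999, chr2:147019000-147021999, chr14:63886000-63888999 and chr3:66777000-66777999, with domains of 14 to 27 kb. Both 60M lists reached the domain of each of the 6, over 8 to 17 kb. At chr3:66777000-66777999 the 60M peaks still covered 13 and 12 kb of a 14 kb domain, and the single bin of this region was left free. Other H3K4me3 in this domain, such as the peak from 66774000 to 66775999, lay under 60M H3K27me3 in both libraries. A region with the same mean cover as the last pair, chr10:49507000-49509999, had a 14 kb domain that neither 60M list reached; it was named after its values were seen. Of the 48 regions with a 5M domain of at least 10 kb, 43 had it reached by both 60M lists and 2 by neither. Those 2, chr10:49507000-49509999 and its neighbour chr10:49499000-49503999, shared a single domain.

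Regions with weaker 5M H3K27me3 were more often without a 60M peak, on the region and on its 5M domain. The 2778 regions with H3K27me3 in both 5M lists were ranked by their mean 5M percentile and split into 5 groups of near equal size. The share with no 60M peak on the region was 30.6% in the weakest group (170 of 556), then 17.3%, 13.3%, 10.3% and 10.3% (57 of 556) in the strongest. The share that kept a peak in both 60M lists went from 37.6% in the weakest group to 75.7% in the strongest. Within the 454, neither 60M list reached the 5M domain in 102 of the 170 regions of the weakest group, against 7 of the 57 of the strongest. Both lists reached it in 30 of the 170 and in 43 of the 57. The median domain was 6 kb wide where both 60M lists reached it, 4 kb where a single list did, and 2 kb where neither did. The domains that neither list reached include all 68 that stayed inside the region, where the rule allows no 60M peak. These 68 had median 5M percentiles of 26.3 and 42.6, so part of both contrasts within the 454 was set by the rule. The 454 regions thus held narrow weak sites whose 5M domain no 60M list reached. They also held wide strong domains that remained listed at 60M beside the H3K4me3 region. An unreached domain could still have a 60M peak close by: at chr7:28149000-28153999 both 60M lists had a peak in the adjacent bin. Peaks near the detection limit of the caller are among the narrow weak sites, and how many of them were missed for that reason was not tested.

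**Figure D3:**
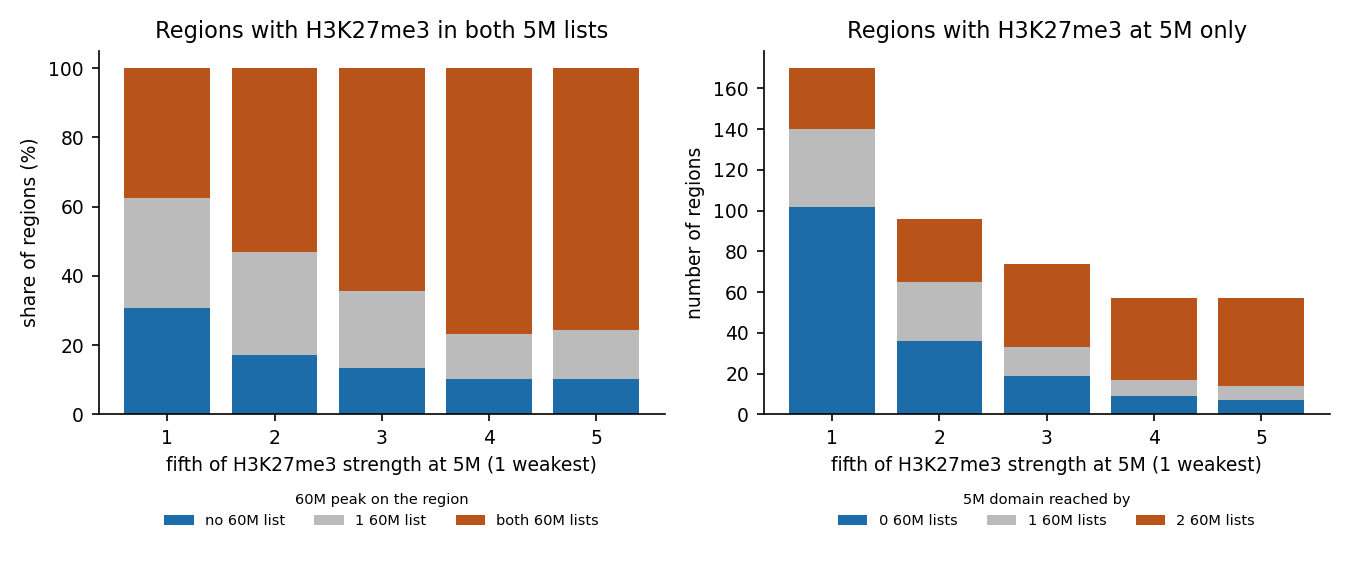
Left, share (%) of the 2778 regions with H3K27me3 in both 5M lists that had a 60M peak in no list, 1 list or both lists, in 5 groups by mean 5M signal percentile. Right, number of the 454 regions with H3K27me3 at 5M only, in the same groups, split by how many 60M lists reached the 5M domain. The share without a 60M peak falls from 30.6% to 10.3%, and among the 454 regions the count with a domain reached by no 60M list falls from 102 to 7. Domains reached by no 60M list include the 68 inside the region, where the rule allows no 60M peak.

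H3K4me3 signal was not used to choose the regions and can be compared between ages. Most of the 454 regions had more H3K4me3 at 60M. The median deposited signal was 210.1 and 210.9 in the 5M libraries and 275.1 and 311.8 in the 60M libraries. Over all 35229 regions the medians were 254.7 and 255.6 at 5M and 280.9 and 287.1 at 60M. The authors' scaling of the signal is not known, so the values were put on a log2 scale and quantile normalized over the 35229 regions. Signals quoted for single regions are as deposited, and differences are on the normalized log2 scale. On that scale the median of the 454 regions was 7.82 and 7.81 at 5M and 8.04 and 8.20 at 60M, where the median of all regions was 8.07 in each library. They thus stood below the median of all regions at 5M, slightly below it in 60M library 1 and above it in 60M library 2.

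Both 60M libraries were above both 5M libraries in 310 of the 454 regions (68.3%), against a background of 30.2% of all 35229 regions. Both were below in 32 (7.05%), where the background was 32.4%. The median difference, 60M minus 5M, was 0.20 on the log2 scale in the 454 regions, with quartiles of 0.09 and 0.40, and −0.01 in all regions. It was above 0 in 387 of the 454 (85.2%). Each 60M library showed this by itself: library 1 was above both 5M libraries in 333 of the 454 (73.3%, against 40.2% of all regions) and library 2 in 381 (83.9%, against 42.7%). Library 2 was the higher of the 60M pair in 344 of the 454 (75.8%), against 49.2% of all regions, so the 60M libraries differed from each other over these regions as well.

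The same shift was seen in regions that kept H3K27me3. In the 1709, both 60M libraries were above both 5M libraries in 63.5% and below in 4.68%, with a median difference of 0.21. In the 615 regions with a 60M peak in a single list the median was 0.18. The 124 regions with the reverse pattern had a median of 0.04, and the 30344 regions without H3K27me3 had a median of −0.03, with 26.3% above and 36.2% below. By these medians a higher H3K4me3 signal at 60M thus went with H3K27me3 at 5M, whether or not a 60M peak remained. The shares called by limma, given below, were less alike, and the classes were not tested against each other.

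The shift was not limited to weak or strong H3K4me3. All regions were split into 5 equal groups by mean normalized H3K4me3 signal. From the weakest group to the strongest, both 60M libraries were above both 5M libraries in 42.9%, 64.9%, 68.3%, 81.5% and 91.0% of the 454 regions. The shares of all regions in the same groups were 33.7%, 32.5%, 31.1%, 29.2% and 24.4%. The median difference of the 454 did not follow this order: it was 0.28, 0.36, 0.30, 0.18 and 0.13 (log2), smallest in the strongest group. The share above differed little by the fate of the domain, with 68.2% where no 60M list reached it, 66.7% where a single list did and 69.2% where both did. The share with both 60M libraries below both 5M libraries was 11.6%, 6.25% and 3.24% in the same order. The 207 regions with H3K27me3 in more than 1 bin of the region in at least 1 5M list had a median difference of 0.29, with 156 (75.4%) above, and the 247 with no more than a single bin had 0.15, with 154 (62.3%) above.

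**Figure D4:**
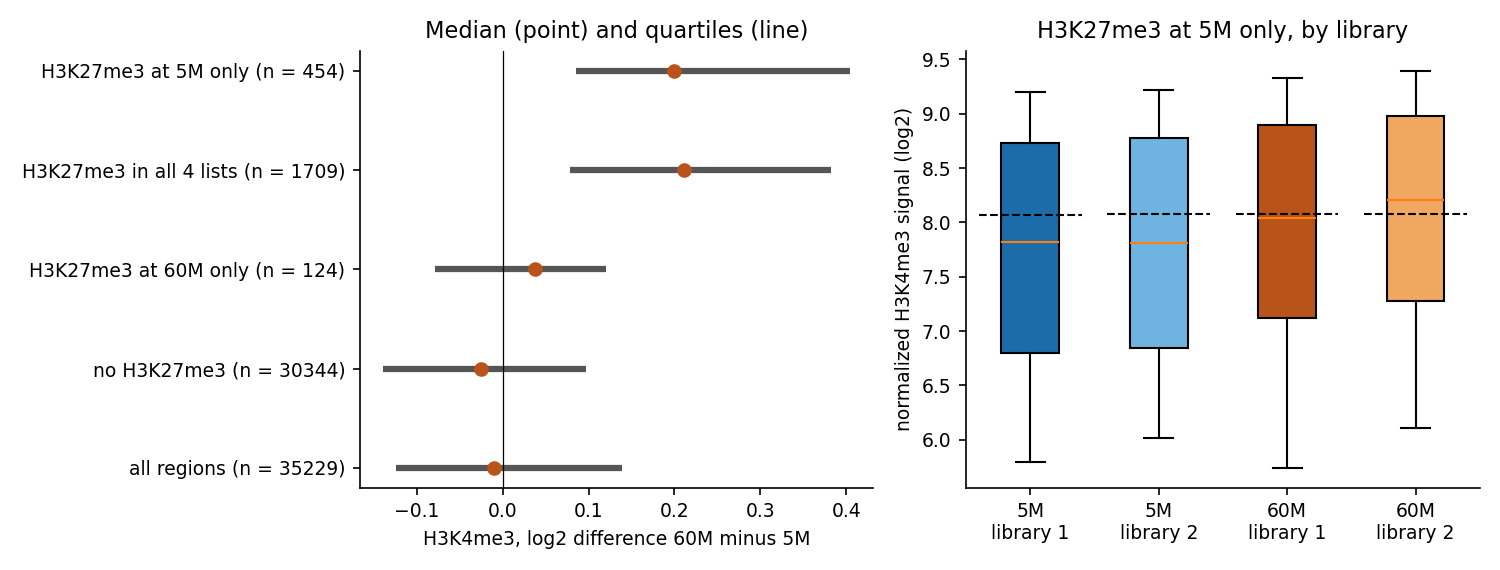
Left, log2 difference in quantile-normalized H3K4me3 signal, 60M minus 5M, by class of region, with the median as a point and the quartiles as a line. Right, normalized H3K4me3 signal (log2) of the 454 regions by library, with boxes at the quartiles, whiskers at the 5th and 95th percentiles and a dashed line at the median of all 35229 regions. The medians are 0.20 for the 454 regions and 0.21 for the 1709 that kept H3K27me3, against −0.03 for regions without it.

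With limma's moderated test over all 35229 regions (two-sided, Benjamini-Hochberg adjusted p under 0.05), H3K4me3 signal was higher at 60M in 27 of the 454 regions (5.95%), against a background of 0.823% (290 regions). It was lower in 1 (0.220%), against a background of 0.622% (219 regions). Of the 1709 regions that kept H3K27me3, 27 (1.58%) were called higher and 3 (0.176%) lower. Of the 615 with a 60M peak in a single list, 15 (2.44%) were called higher and 0 lower. At an unadjusted limma p under 0.05, 214 of the 454 were higher and 11 lower, against 5134 and 4275 of all 35229 regions. The limma adjusted p of the 28 regions called among the 454 lay between 0.0401 and 0.0490, close to the threshold. No region was called when the replicate number entered as a block, and the calls did not hold without either 5M library. With a library left out, 1 age is left with a single library, so only the median difference of the 454 is given here. It was 0.17 and 0.23 without 5M library 1 and 2, and 0.30 and 0.15 without 60M library 1 and 2. The median of all regions was −0.01 in each of these fits. With the signal as deposited, without normalization, 4201 of all regions were called higher and 546 lower, and 140 and 4 of the 454.

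The 27 regions with higher H3K4me3 rose by 0.26 to 1.84 on the log2 scale, with a median of 0.49. Their median signal was 286.2 and 310.5 at 5M and 511.3 and 510.9 at 60M, and 6 of them had a mean 5M signal under 100. The largest difference was at chrX:41719000-41722999, with signals of 78.9 and 71.9 at 5M and 319.4 and 313.5 at 60M. The ages did not overlap, and the difference was 1.84 ± 0.13 (log2, SE, limma adjusted p = 0.0401). This region was covered throughout by H3K27me3 at 5M, with signals of 44.9 and 69.4, and the nearest 60M peak lay 938 kb away in library 1 and 1865 kb away in library 2. Its H3K4me3 covered 2 kb in each 5M library, 3 kb in 60M library 1 and 4 kb in 60M library 2.

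At chr10:129849000-129850999 the H3K4me3 signals were 43.4 and 51.1 at 5M and 202.9 and 187.2 at 60M. Both 60M libraries stood well above the 5M pair, by 1.81 ± 0.19 (log2, SE, limma adjusted p = 0.0402). Here both 60M lists still held H3K27me3 in the adjacent bin. At chrX:93908000-93909999 the signals were 46.5 and 43.0 at 5M and 128.9 and 145.5 at 60M, at chr3:3297000-3298999 they were 60.7 and 59.3 against 191.4 and 165.4, and at chr3:120807000-120808999 they were 56.8 and 57.8 against 152.1 and 179.5. These 3 also did not overlap between ages, with differences of 1.36, 1.30 and 1.25. The regions with the largest differences were thus weak in H3K4me3 at 5M.

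The only region called lower was chr8:79432000-79433999. Its signals were 159.3 and 145.3 at 5M and 80.3 and 74.5 at 60M, a difference of −1.25 ± 0.16 (log2, SE, limma adjusted p = 0.0456), and it covered 2 kb in both 5M libraries and 1 kb in both 60M libraries. Its 60M signals lay below both 5M signals. H3K4me3 signal was thus lower at 60M where H3K27me3 was no longer listed, opposite to the other 27 called regions.

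**Figure D5:**
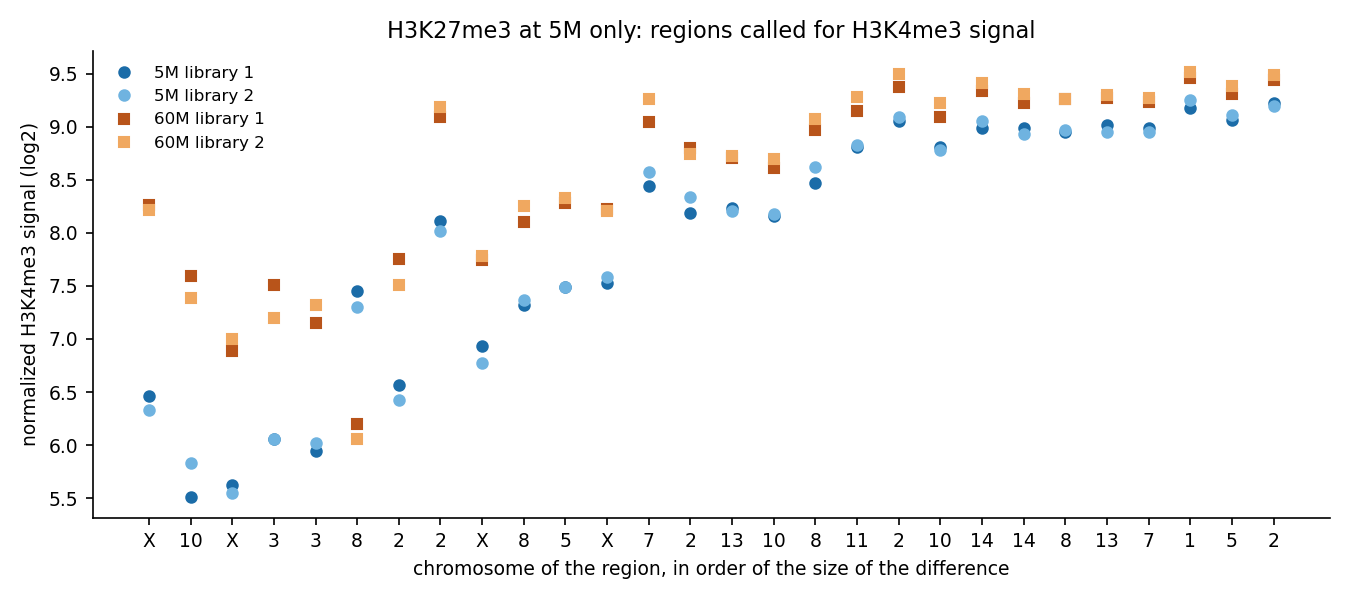
Quantile-normalized H3K4me3 signal (log2) in each library for the 28 regions with H3K27me3 at 5M only that limma called for a difference between ages, in order of the size of the difference and labelled by chromosome. In 27 of the 28 both 60M libraries (squares) lie above both 5M libraries (circles). The differences run from 1.84 on chromosome X to 0.26 (log2), and a single region on chromosome 8 lies lower at 60M.

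Among the regions with the strongest 5M H3K27me3, all 15 had a difference above 0, and 2 were called. On the normalized scale both 60M libraries were above both 5M libraries in 13. These include chr17:39979000-39985999, where the deposited signals of the ages overlapped. The called ones were chr14:122872000-122876999 and chr8:12394000-12398999. At the first the signals were 526.1 and 526.4 at 5M and 657.3 and 635.7 at 60M, a difference of 0.35 ± 0.04 (log2, SE, limma adjusted p = 0.0410). At the second they were 346.9 and 381.6 at 5M and 511.3 and 510.9 at 60M, a difference of 0.48. At both, the 60M values exceeded both 5M values.

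Other strong H3K27me3 regions had larger differences with unequal 60M libraries. At chr17:86007000-86008999 the H3K4me3 signals were 57.6 and 59.3 at 5M and 83.4 and 170.3 at 60M. At chr5:120253000-120255999 they were 51.3 and 48.9 at 5M and 111.9 and 249.1 at 60M, which gave a difference of 1.49 ± 0.38 that did not pass (log2, SE, limma adjusted p = 0.104). Both 60M libraries were above the 5M pair at both sites, and library 2 was far above library 1.

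A pair of called regions stood side by side on chromosome 2. At chr2:38210000-38213999 the H3K4me3 signals were 262.5 and 244.6 at 5M and 554.4 and 549.8 at 60M, a difference of 1.07 ± 0.06 (log2, SE, limma adjusted p = 0.0401). At chr2:38203000-38208999 the difference was 0.36. This pair was chosen after the values were seen.

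H3K4me3 also covered slightly more bases at 60M. The mean covered width of the 454 regions was 2.57 and 2.67 kb at the younger age, 2.75 and 2.80 kb at the older, against 2.35, 2.41, 2.47 and 2.48 kb over all regions. The ages did not overlap in either set. The region was wider in each 60M library than in either 5M library in 47 of the 454 (10.4%), against a background of 7.43%. It was narrower in each in 14 (3.08%), against a background of 2.49%. These shares are close to the background, and the regions that kept H3K27me3 had 15.9% wider and 1.52% narrower. Widths are in whole bins and were compared by these counts alone, with no model fitted; an exact permutation test of 2 libraries against 2 cannot give a two-sided p below 0.333. Leaving out 5M library 2 gave 85 wider regions (18.7%, against 11.5% of all regions). Leaving out 60M library 1 gave 79 (17.4%, against 12.5%). Leaving out 5M library 1 gave 28 narrower ones (6.17%, against 5.20% of all regions) and leaving out 60M library 2 gave 24 (5.29%, against 4.38%).

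The largest gains in covered width were at chr7:28149000-28153999, where the younger libraries covered 2 and 3 kb and the older ones 4 and 5 kb, and chr7:16730000-16732999, with 1 kb in both 5M libraries and 3 kb in both 60M libraries. Several regions tied at the next largest mean gain, and those with the strongest 5M H3K27me3 among them were chr14:122872000-122876999, with 3 and 4 kb against 5 kb in both, and chr19:45304000-45311999, with 6 and 7 kb against 8 kb in both. At the last of these, the 60M H3K4me3 peaks adjoined the 60M H3K27me3 peaks on both sides.

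Of the 173 regions whose domain was reached by no 60M list, 24 (13.9%) were wider in both 60M libraries. The counts were 11 of 96 (11.5%) where a single list reached it and 12 of 185 (6.49%) where both did. All 14 regions that were narrower in both 60M libraries were also among the 173. The largest differences were at chr7:17529000-17532999 and chr8:46443000-46446999, both from 4 kb in each 5M library to 2 kb in each 60M library, at chr5:77283000-77288999, from 6 to 4 kb, and at chr1:25234000-25236999, from 2 and 3 kb to 1 kb in both. Width and signal did not always move together: at chr5:77283000-77288999 the signal was called higher at 60M, by 0.26 on the log2 scale, from 558.5 and 545.0 to 644.8 and 624.0.

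The 454 regions were spread over all autosomes and the X chromosome, and most stood alone. Of the 2726 autosomal regions with H3K27me3 in both 5M lists, 435 (16.0%) belonged to the 454. On the X chromosome 19 of 52 did (36.5%, Clopper-Pearson 95% interval 23.6 to 51.0%). The interval covers counting error only. The shares of single autosomes ran from 9.30% on chromosome 9 (12 of 129) to 22.5% on chromosome 14 (29 of 129), with 22.2% on chromosome 7 (41 of 185). Chromosome 7 had no region with the reverse pattern. The median distance from one of the 454 to the next was 1419 kb, and 25 lay within 10 kb of another. In the order of all regions with H3K4me3 in all 4 lists, directly neighbouring ones formed 22 pairs and a single run of 3, at chr5:140011000-140020999. Among the 454, 10 had a 5M domain with the same borders as that of another. Domains that overlapped only in part were not counted, such as those of chr2:38203000-38208999 and chr2:38210000-38213999. The 454 are thus not all independent sites.

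The 19 regions on the X chromosome were weak in H3K27me3 at 5M, with median percentiles of 6.31 and 13.2 in the 2 lists. Neither 60M list reached the 5M domain in 12 of the 19, a single list did in 3 and both did in 4. The X chromosome held 164 and 215 of the H3K27me3 peaks of the 5M lists and 171 and 143 of those of the 60M lists. Their H3K4me3 was higher at 60M: both 60M libraries were above both 5M libraries in 18 of the 19 (94.7%). The median difference was 0.41 on the log2 scale, and 4 (21.1%) were called higher. Over all 1002 X regions with H3K4me3 in all 4 lists, both 60M libraries were above in 21.9% and below in 46.7%, with a median of −0.08. Of the 1002, 7 (0.699%) were called higher. The X regions that kept H3K27me3 were above in 13 of 16. The median of the 19 regions thus had the opposite sign to that of all X regions, a difference that was not tested. Without the X chromosome the median difference of the remaining 435 regions was 0.19, with 23 called higher and 1 lower.

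Both sides of the rule's border were weak X regions. The members with the lowest 5M percentiles were chrX:35179000-35181999, with 5M H3K27me3 signals of 19.9 and 18.9, chrX:80732000-80733999, with 25.7 and 21.4, and chrX:93908000-93909999, with 24.4 and 27.8. Just outside the rule were chrX:51482000-51483999, with 5M signals of 32.7 and 37.2 and a 60M peak in library 1 alone at 15.7, and chrX:133461000-133465999, with 23.1 and 24.6 and a 60M peak in library 2 alone at 16.4. The next was chrX:130220000-130226999, with 32.7 and 40.4 and a 60M peak in library 1 alone at 23.3. A single weak 60M peak thus decided which side of the border these regions fell on.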

How the data were processed

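Peak lists of 8 chromatin immunoprecipitation libraries were analysed, 2 per mark and culture age. The submitters' processing notes name CASAVA 1.8.4, Bowtie 1.1.2 and the build mm10. No peak caller is named. The authors deposited 1 list per library, not pooled, with borders in 1000 bp bins. Per the file headers, each peak has a maximum immunoprecipitation signal, 2 columns of −log10 p (alone and against the control, the latter from 3.01 to 15.95) and a q-value. The signal's scaling is not given in these sources. Over the 8 lists, 1331 peaks end past the mm10 chromosome ends on 9 chromosomes, and 2 end past those of mm9, both on chromosome 13. No mm9 genome or annotation was at hand and positions were not converted, so gene names, gene lists, cell type markers and sequences were not analysed here.

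For each region the highest signal per library was taken as log2, quantile normalized over the 35229 regions with H3K4me3 in all 4 lists, and fitted with limma 3.58.1 (R 4.3.3, trend on, 2 libraries per age, no block, Benjamini-Hochberg over all regions, threshold 0.05). The fit and the region calls were tested on simulated data. Counts used Python 3.11.15, numpy 2.4.6, pandas 2.3.3 and scipy 1.17.1, figures used matplotlib 3.10.9, and chromosome lengths came from GenomeInfoDb 1.38.1. Regions were named by rule: the 15 strongest in 5M H3K27me3, the next 6 by mean bases covered by overlapping 5M peaks, the 6 largest called H3K4me3 signal differences, the 4 largest mean width changes of each direction (ties by 5M strength), and 3 on each side of the rule's border; others are said to be chosen after their values were seen, or belong to the called regions. The regions, lists and tests were chosen with earlier results of these data known. Alternatives covered merging, overlap, peak thresholds, list length, normalization, low signal, the value per region, a replicate block, and leaving out each library; counting peaks in the adjacent bin, leaving out X and the groups by H3K4me3 signal were added after seeing the data.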

Additional observations from a re-analysis of the deposited data

How the results depend on the processing

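The number of regions with H3K4me3 in all 4 lists and H3K27me3 at 5M only was 454. It was 58 when only peaks at the highest −log10 p were used, and between 457 and 1138 with each library left out, the largest without H3K27me3 5M library 1; it was 802 and 721 without H3K27me3 60M library 1 and 2. Other choices gave 359 to 481. Counting an H3K27me3 peak in the adjacent bin left a similar number, 394, but only 161 of the 454 were among them, and counting peaks within 1 kb gave 400, with 135 of the 454.

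The counts of called H3K4me3 signal changed most. With median centring, 1384 of all regions were called higher and 969 lower, and 59 and 4 of the 454, with median differences of 0.15 for the 454 and −0.10 for all regions. With the signal as deposited the counts were 4201 and 546, and 140 and 4. With regions above the lower quartile of signal alone they were 191 and 133, and 19 and 0, where 3 of the 454 regions were lower at an unadjusted limma p under 0.05; fewer regions were tested. With each H3K4me3 library left out, the counts of all regions ran from 0 to 5460 higher and from 0 to 5870 lower, and those of the 454 from 0 to 256 and from 0 to 19. The zeros came without 5M library 1 (limma, unadjusted p under 0.05: 106 higher and 5 lower of the 454) and without 5M library 2 (135 and 3); the lone 5M library was assumed to vary like the 60M pair. The cause of these changes was not tested.

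With the replicate number as a block, limma called 0 of all regions and 0 of the 454 in either direction, with 216 of the 454 higher and 10 lower at an unadjusted p under 0.05, and 5142 and 4555 of all regions. The numbers are not known to pair the libraries: deviations of same-numbered libraries correlated at r = 0.0797 across regions, which are not independent replicates.

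The median H3K4me3 difference of the regions each alternative selected was above 0 throughout, at 0.13 to 0.30, and 0.43 in the 58 regions with peaks at the highest −log10 p. Alternatives to the region rule give other sets than the 454, such as the 400 regions with a median of 0.13. Leaving out a library gave 0.15 to 0.30. The count of narrower regions was 22 with peaks merged within 1 kb (5.03%, against 3.01% of all regions). With a library left out, 59 to 85 regions were wider (13.0 to 18.7%, against 9.70 to 12.5% of all regions). In the same settings 15 to 28 were narrower (3.30 to 6.17%, against 3.27 to 5.20%). Depth is unknown, so weak peaks missed in a list cannot be told apart from absent ones.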
